A study of Homo sapiens with 8 samples.

Results

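The genes described here are 9 interferon-induced antiviral genes, IFIT1, IFIT2, IFIT3, ISG15, ISG20, IRF1, IRF9, GBP3 and ZC3HAV1, chosen by name and represented by all 16 probe sets that the platform annotation assigns to them, out of 54675 on the array. The study asked how inhibitors of the unfolded protein response change gene expression in HT1080 cells, a human fibrosarcoma line, when glucose use is blocked. There were 8 conditions, each with 1 Affymetrix U133 Plus 2.0 array: 2-deoxy-D-glucose (2DG, 10 mM) with compound C (2DG+CC, 10 µM), with versipelostatin (2DG+VST, 10 µM) or with phenformin (2DG+Phen, 100 µM), 2DG alone, each compound alone under normal growth conditions at the same dose (CC, VST and Phen), and untreated cells (control). All cells were treated for 18 h, and the compounds were given just ahead of 2DG. Because every condition is a single array of a single cell line, no difference below has an error, a p-value or a replicate check, and each one compares 1 array with 1 array.

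Interferons are secreted proteins that bind receptors on the cell surface and, through JAK kinases and STAT transcription factors, switch on a large set of antiviral genes. IRF9 is the DNA-binding partner of the STAT proteins in the complex that reads the interferon-stimulated response element, and IRF1 is a transcription factor that is itself induced by interferon gamma and activates many of the same genes. The IFIT proteins bind viral RNA or the proteins that translate it, ISG15 is a ubiquitin-like protein that is attached to other proteins, ISG20 is an exonuclease that degrades RNA, GBP3 is a guanylate-binding GTPase, and ZC3HAV1 (also called ZAP) binds CpG-rich viral RNA and directs its decay. 2DG competes with glucose for uptake and glycolysis and also disturbs protein glycosylation, so that unfolded proteins accumulate in the endoplasmic reticulum. Compound C inhibits AMP-activated protein kinase and BMP receptors, phenformin is a biguanide that inhibits mitochondrial complex I, and versipelostatin is a microbial product known as an inhibitor of the unfolded protein response.

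The promoters are shown because the interferon pathway acts through short DNA elements, and they let the element content of a gene be set beside its level in these cells. RefSeq windows of 300 bases (250 before and 50 after the transcript start, GRCh38.p14) were found for 8 of the 9 genes, with 1 window each except for IFIT3, which had 2. These motifs were searched on both strands, and a match describes letters only, not a bound site. The core of the interferon-stimulated response element, GAAANNGAA, lay in the windows of 5 of the 8 genes (GBP3, IFIT1, IFIT3, ISG15 and ISG20) and in 8.11% of all 35116 windows. The gamma-activated site TTCNNNGAA lay in those of 4 genes (GBP3, IRF1, IRF9 and ZC3HAV1) and in 7.66% of all windows. No match of one motif overlapped a match of another in these windows. The NF-kappaB form GGNNTTTCC lay in that of ISG15 alone among the 8 genes, and in 6.26% of all windows. In the windows printed here the capitals mark the response-element core, and in IRF1 they mark the gamma-activated site. The upstream IFIT3 window, chr10:89327747-89328046 on the plus strand, holds the core at positions -155 and -121 from the start. The ISG15 window, chr1:1013247-1013546 on the plus strand, holds 3 overlapping matches at -113, -107 and -101. The GBP3 window, chr1:89022817-89023116 on the minus strand, holds 1 just inside the transcript at +4. The IRF1 window, chr5:132490724-132491023 on the minus strand, holds its gamma-activated site at -124.
IFIT3: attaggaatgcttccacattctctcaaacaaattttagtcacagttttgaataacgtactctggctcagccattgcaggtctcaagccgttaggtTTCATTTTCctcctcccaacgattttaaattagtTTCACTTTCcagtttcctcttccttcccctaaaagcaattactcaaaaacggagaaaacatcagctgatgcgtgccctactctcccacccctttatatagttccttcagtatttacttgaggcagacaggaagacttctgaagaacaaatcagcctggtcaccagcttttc
ISG15: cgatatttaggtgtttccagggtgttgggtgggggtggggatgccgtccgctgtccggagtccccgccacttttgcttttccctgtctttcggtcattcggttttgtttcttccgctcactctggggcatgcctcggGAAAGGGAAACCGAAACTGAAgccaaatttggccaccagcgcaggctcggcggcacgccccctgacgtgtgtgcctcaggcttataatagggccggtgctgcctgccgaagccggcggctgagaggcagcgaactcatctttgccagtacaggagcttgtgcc
GBP3: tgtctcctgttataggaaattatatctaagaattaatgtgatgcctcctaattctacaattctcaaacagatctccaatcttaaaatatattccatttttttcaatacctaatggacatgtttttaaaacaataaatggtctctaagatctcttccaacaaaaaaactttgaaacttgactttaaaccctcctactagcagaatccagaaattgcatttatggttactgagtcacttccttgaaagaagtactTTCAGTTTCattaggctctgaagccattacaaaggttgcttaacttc
IRF1: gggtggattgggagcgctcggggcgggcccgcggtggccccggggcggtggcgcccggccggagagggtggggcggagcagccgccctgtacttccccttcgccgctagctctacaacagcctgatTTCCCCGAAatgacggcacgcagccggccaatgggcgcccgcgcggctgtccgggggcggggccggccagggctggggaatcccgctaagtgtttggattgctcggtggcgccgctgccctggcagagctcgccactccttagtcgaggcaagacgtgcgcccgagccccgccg

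All values are log2 expression values that the authors normalized with RMA, a method that makes the arrays' distributions alike. The median of all non-control probe sets lay between 3.12 and 3.28 on the 8 arrays, and a value under it was read only as a bound. A gene was called measured where its probe set reached 6 on at least 1 array, which left 8429 genes. Of the 9 interferon-induced genes 7 were measured, and IFIT1 and IFIT2 were not. IRF1 reached 6 on the 2DG and VST arrays alone and IRF9 on the Phen, 2DG and VST arrays, so genes of this kind entered the description through the arrays where they were high, and counts over the 7 genes are a description only. The spiked poly-A control RNAs read higher by 1.04 in 2DG+CC, 0.60 in 2DG+VST and 0.44 in 2DG+Phen than in 2DG, and their part in the differences was not tested. Scaling the arrays on these controls would move every gene of a comparison by the same amount, and its values are given below where it turns a printed difference of a member's main probe set or changes its 2-fold call. All 8 listed mesenchymal markers were measured and none of the epithelial, leukocyte or endothelial markers was, which fits the labelled fibrosarcoma line.

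IFIT3 (chr10:89327997-89340968, GRCh38.p14) had the largest 2DG difference among the 7 genes. Its main probe set read 2.21 in 2DG+CC, 3.84 in 2DG+VST and 3.47 in 2DG+Phen, against 6.95 in 2DG. Without 2DG it read 6.49 in CC, 4.96 in VST and 6.53 in Phen, against 5.54 in the control. The 3 arrays that combined 2DG with a compound were thus the 3 lowest of the 8, and 2DG alone was the highest. Under 2DG the level was higher than in the control by 1.41, or 2.66-fold. Adding a compound to 2DG left it at -3.72 or lower relative to 2DG alone with CC (at least 13.1-fold), -3.11 with VST (8.62-fold) and -3.49 with Phen (11.2-fold). The other IFIT3 probe set, of lower signal, read 3.10 in 2DG+CC, 3.79 in 2DG+VST and 4.01 in 2DG+Phen, against 4.97 in 2DG, and 4.86 in CC, 3.85 in VST and 4.69 in Phen, against 4.12 in the control. Its differences had the same directions with smaller sizes, 0.85 for 2DG against the control and -1.73 or lower, -1.18 and -0.96 for CC, VST and Phen added to 2DG, the last of these under 2-fold.

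The other IFIT genes lie close by on chromosome 10 and were near the bottom of the measurable range. IFIT2 (chr10:89302046-89309271) read 3.01 in 2DG+CC, 2.64 in 2DG+VST and 2.61 in 2DG+Phen, against 4.13 in 2DG, and 3.62 in CC, 3.22 in VST and 3.98 in Phen, against 3.04 in the control. The 2DG array was again the highest and the 3 combined arrays, with the control, lay under their array medians. Relative to 2DG alone IFIT2 stood at -0.89 or lower with CC, -0.90 or lower with VST and -0.85 or lower with Phen. The other IFIT2 probe set stayed under the array median on all 8 arrays, between 2.29 and 2.80. IFIT1 (chr10:89392623-89406487) was above its array median on the Phen array alone, at 3.68, and between 2.17 and 3.08 on the other 7 arrays.

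ISG15 (chr1:1013497-1014540) behaved differently, since its level stayed within a span of 1.23 over the 8 arrays. It read 8.82 in 2DG+CC, 8.06 in 2DG+VST and 7.68 in 2DG+Phen, against 7.86 in 2DG, and 8.33 in CC, 7.59 in VST and 8.10 in Phen, against 7.98 in the control. The CC arrays were the highest, with and without 2DG. No difference reached 2-fold, and the largest, 0.95 for 2DG+CC against 2DG, had the opposite sign, -0.08, after scaling on the poly-A controls. That scaling also turned 2DG+VST against 2DG (0.19 as deposited, -0.41 scaled) and Phen against the control (0.13 as deposited, -0.18 scaled). This was the only one of the 7 measured genes whose probe set is of the type that can also match related transcripts.

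ISG20 (chr15:88635632-88656483) was highest under 2DG. Its main probe set read 6.31 in 2DG+CC, 5.87 in 2DG+VST and 5.53 in 2DG+Phen, against 7.08 in 2DG, and 6.25 in CC, 6.47 in VST and 6.73 in Phen, against 5.89 in the control. The difference was 1.19 for 2DG against the control (2.28-fold, but 0.86 after scaling on the poly-A controls). With a compound added to 2DG it was -0.77 for CC (-1.81 after scaling on the poly-A controls), -1.21 for VST (-0.99 with the arrays centred on their medians) and -1.55 for Phen, so that Phen gave the lowest array and CC stayed within 2-fold of 2DG. The other ISG20 probe set gave 1.13 for 2DG against the control and -0.79, -1.28 and -2.07 for CC, VST and Phen added to 2DG, the same order.

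**Figure D1:**
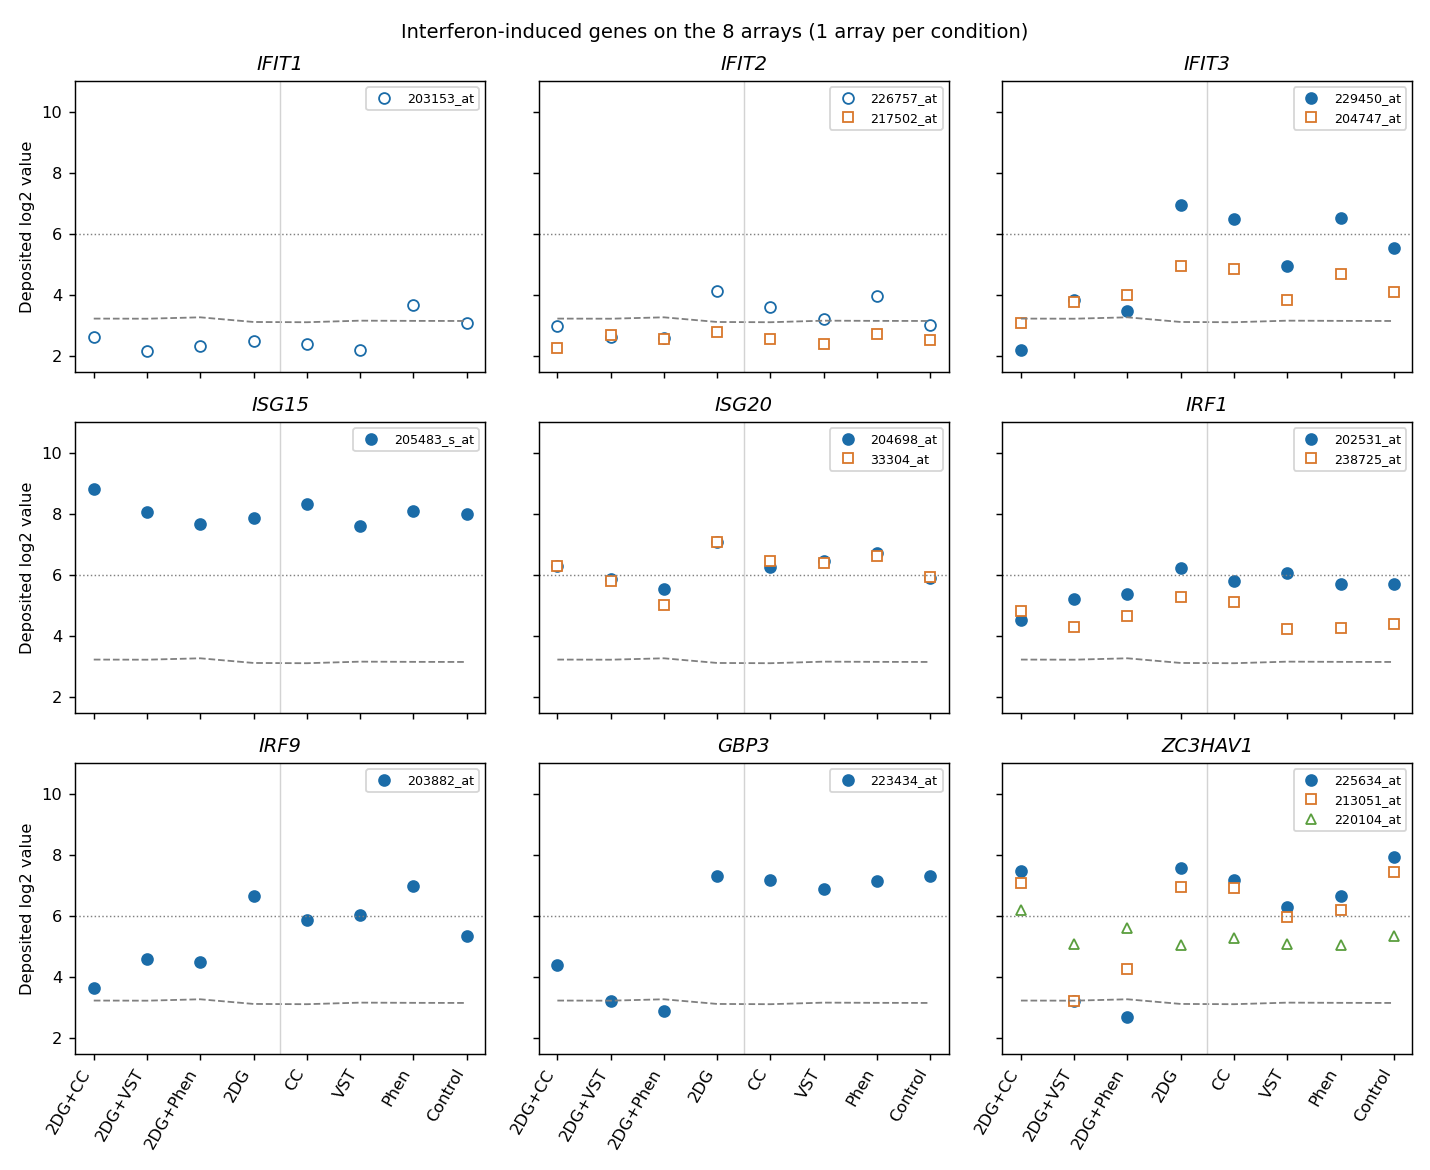
Deposited log2 value (vertical axis) of the 9 genes on the 8 arrays (horizontal axis), 1 panel per gene and 1 point per probe set and array, with filled circles for the probe set that represents a measured gene, open symbols for others, a dashed line for the array median and a dotted line for the limit of 6. By the filled circles IFIT3 and IRF9 are lowest on the 3 arrays of 2DG with a compound, GBP3 and ZC3HAV1 reach the dashed line on some of them, and ISG15 stays between 7.59 and 8.82.

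GBP3 (chr1:89006680-89022866) did not differ with 2DG alone but was low on every array of 2DG with a compound. It read 4.41 in 2DG+CC, 3.23 in 2DG+VST and 2.88 in 2DG+Phen, against 7.30 in 2DG, and 7.19 in CC, 6.89 in VST and 7.14 in Phen, against 7.31 in the control. The 4 arrays of 2DG or a compound alone lay within 0.42 of the control. Relative to 2DG the difference was -2.88 with CC (7.37-fold), -4.06 or lower with VST (at least 16.7-fold) and -4.02 or lower with Phen (at least 16.2-fold). The loss of signal was therefore seen with 2DG and a compound together and with neither alone.

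ZC3HAV1 (chr7:139043515-139109720) separated the compounds. Its main probe set read 7.47 in 2DG+CC, 3.23 in 2DG+VST and 2.69 in 2DG+Phen, against 7.56 in 2DG, and 7.17 in CC, 6.30 in VST and 6.64 in Phen, against 7.93 in the control. On this probe set VST and Phen were lower than the control even without 2DG, by differences of -1.63 (3.10-fold) and -1.29 (2.44-fold). In 2DG the differences from 2DG alone were -4.33 with VST, where the value lay at the array median (20.1-fold), and -4.28 or lower with Phen (at least 19.4-fold), but -0.09 with CC (-1.13 after scaling on the poly-A controls). Its next probe set read 7.07 in 2DG+CC, 3.22 in 2DG+VST and 4.26 in 2DG+Phen, against 6.96 in 2DG, with differences of 0.11 (-0.93 after scaling on the poly-A controls), -3.72 or lower and -2.70. A probe set of lower signal behaved otherwise, at 6.18 in 2DG+CC, 5.08 in 2DG+VST and 5.62 in 2DG+Phen, against 5.05 in 2DG, which gave differences of 1.13, 0.03 and 0.57, or 0.09, -0.57 and 0.14 after scaling on the poly-A controls. For VST and Phen against the control it gave only -0.24 and -0.30, where the next probe set gave -1.47 and -1.24. ZC3HAV1 makes a long and a short protein from alternative 3' ends, and which transcripts the 3 probe sets read was not analysed here.

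The transcription factors IRF9 and IRF1 were lower on all 3 combined arrays than in 2DG. IRF9 (chr14:24161265-24166565) read 3.66 in 2DG+CC, 4.60 in 2DG+VST and 4.51 in 2DG+Phen, against 6.65 in 2DG, and 5.87 in CC, 6.04 in VST and 6.98 in Phen, against 5.34 in the control. Phen alone gave its highest value, 1.64 over the control (3.11-fold), and 2DG alone gave 1.31 (2.48-fold, but 0.99 after scaling on the poly-A controls). With a compound in 2DG the difference from 2DG was -2.99 for CC (7.92-fold), -2.05 for VST (4.14-fold) and -2.14 for Phen (4.42-fold). Phenformin thus gave the highest IRF9 level alone and one of the 3 lowest in combination. A further probe set, annotated to both RNF31 and IRF9, cannot be assigned to either gene, and read 4.95 in 2DG+CC, 4.69 in 2DG+VST and 4.63 in 2DG+Phen, against 5.77 in 2DG, and 6.22 in CC, 5.88 in VST and 5.41 in Phen, against 5.62 in the control. Unlike the main IRF9 probe set it differed little from the control with 2DG (0.15) and was lower with Phen (-0.21).

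IRF1 (chr5:132481609-132490773) covered a narrower range. It read 4.52 in 2DG+CC, 5.23 in 2DG+VST and 5.38 in 2DG+Phen, against 6.23 in 2DG, and 5.80 in CC, 6.06 in VST and 5.69 in Phen, against 5.72 in the control. On this main probe set the 3 combined arrays were the lowest, with 2DG+CC below the others. The difference was 0.51 for 2DG against the control, and relative to 2DG it was -1.71 with CC (3.27-fold), -1.003 with VST (just past the 2-fold count, but -0.78 with the arrays centred on their medians) and -0.85 with Phen (-1.29 after scaling on the poly-A controls). A weaker IRF1 probe set gave 0.87 for 2DG against the control and -0.45, -0.97 and -0.61 for CC, VST and Phen added to 2DG. On it 2DG+CC read highest of the 3 combined arrays, at 4.83, against 4.31 in 2DG+VST and 4.67 in 2DG+Phen. These 3 were not the lowest arrays on it, since VST alone read 4.22 and Phen alone 4.28.

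Counted over the 7 measured genes, 2DG against the control gave 3 genes at least 2-fold higher (IFIT3, ISG20 and IRF9) and none lower, where 3.06% of the 8429 genes were higher and 1.90% lower. The median difference was 0.51, against 0.01 over all genes. For CC against the control no gene passed 2-fold, with 3.88% of all genes higher and 2.70% lower. VST gave none higher and ZC3HAV1 lower, with 2.46% and 2.48% of all genes. Phen gave IRF9 higher and ZC3HAV1 lower, with 2.66% and 2.17% of all genes. The medians were 0.35 for CC, -0.39 for VST and 0.13 for Phen, against 0.04, -0.02 and -0.03 over all genes, so that none of the compounds alone moved the group as a whole by 2-fold. These 4 comparisons share the control array.

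**Figure D2:**
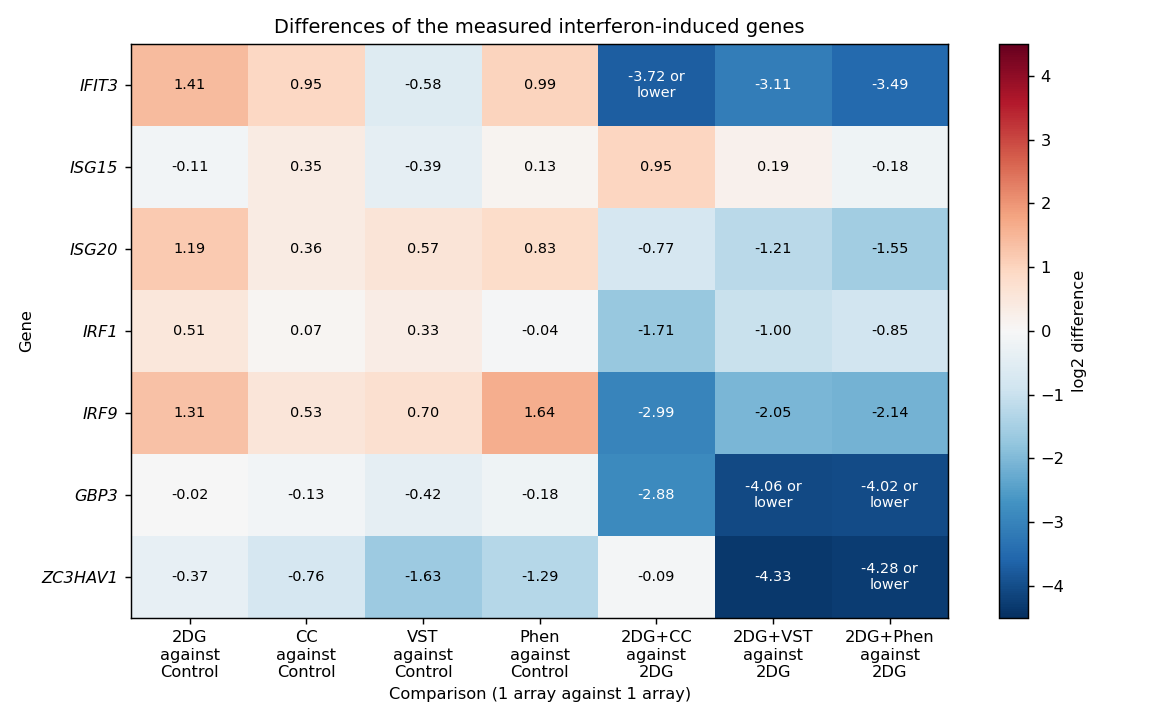
Differences in log2 expression of the 7 measured genes (rows) in the 7 comparisons (columns), with blue for lower and red for higher in the condition named first. The 3 right-hand columns are blue for IFIT3, IRF9 and GBP3 throughout, and ZC3HAV1 is near 0 with 2DG+CC at -0.09.

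With the compounds in 2DG the counts turned to the lower side. For 2DG+CC against 2DG, 4 of 7 genes were at least 2-fold lower (IFIT3, IRF1, IRF9 and GBP3) and none was higher, where 25.4% of all genes were lower and 8.33% higher. For 2DG+VST, 6 of 7 were lower, every one but ISG15, with 20.0% of all genes lower and 4.09% higher. For 2DG+Phen, 5 of 7 were lower (IFIT3, ISG20, IRF9, GBP3 and ZC3HAV1), with 21.8% of all genes lower and 4.84% higher. Lower calls were thus common over the whole array in these comparisons, and the members' counts stand beside that background. The median of the 7 genes was -1.71 with CC, -2.05 with VST and -2.14 with Phen, against -0.23, -0.18 and -0.26 over all genes. With the arrays scaled on the poly-A controls the medians over all genes became -1.27, -0.79 and -0.70, and those of the 7 genes moved by the same amounts. The share of all genes at least 2-fold lower was not counted under that scaling, so scaled counts below have no such background. The 3 comparisons share the 2DG array, so a high reading on it would enter all of them.

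The same arrays can be read as the effect of 2DG in cells that already had a compound. For IFIT3 the difference was -3.25 or lower for 2DG+CC against CC, -1.12 for 2DG+VST against VST and -3.06 for 2DG+Phen against Phen, against 1.41 for 2DG against the control. The other IFIT3 probe set was at -1.63 or lower with CC, -0.06 with VST and -0.68 with Phen, against 0.85 without. For IRF9 it was -2.20 with CC, -1.44 with VST and -2.47 with Phen, against 1.31 without a compound. ISG20 was at 0.06 with CC, -0.60 with VST and -1.19 with Phen, against 1.19 without a compound. After scaling on the poly-A controls ISG20 was at -1.18 with CC and -1.51 with VST, and with the arrays centred or quantile normalized it was at -0.99 or -0.91 with Phen. For these 3 genes 2DG alone was thus higher than the control. They are the members that passed 2-fold upward there, so this direction follows from the choice. On their main probe sets, 2DG on top of a compound was lower than that compound in 8 of 9 cases as deposited. The exception was ISG20 with CC, which was at -0.16 on its other probe set. Over all genes the median difference was also negative, at -0.24 with CC, -0.14 with VST and -0.23 with Phen. Scaled on the poly-A controls, these medians were -1.48, -1.06 and -0.68. How many of all genes were lower here was not counted. GBP3 differed by -2.77 with CC, -3.66 or lower with VST and -3.86 or lower with Phen, against -0.02 without a compound. ZC3HAV1 differed by 0.30 with CC, -3.06 with VST and -3.36 or lower with Phen, against -0.37 without, and its value with CC was -0.94 after scaling on the poly-A controls. Its probe set of lower signal was at 0.90 with CC, -0.02 with VST and 0.58 with Phen, against -0.29 without. IRF1 was at -1.28, -0.83 and -0.31 with CC, VST and Phen, against 0.51 without, and ISG15 at 0.49, 0.47 and -0.42, against -0.11. After scaling on the poly-A controls IRF1 with VST was at -1.74, and ISG15 was at -0.76 with CC and -0.45 with VST, so that both ISG15 directions turned. The weaker IRF1 probe set was at -0.30 with CC, 0.09 with VST and 0.39 with Phen, against 0.87 without.

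**Figure D3:**
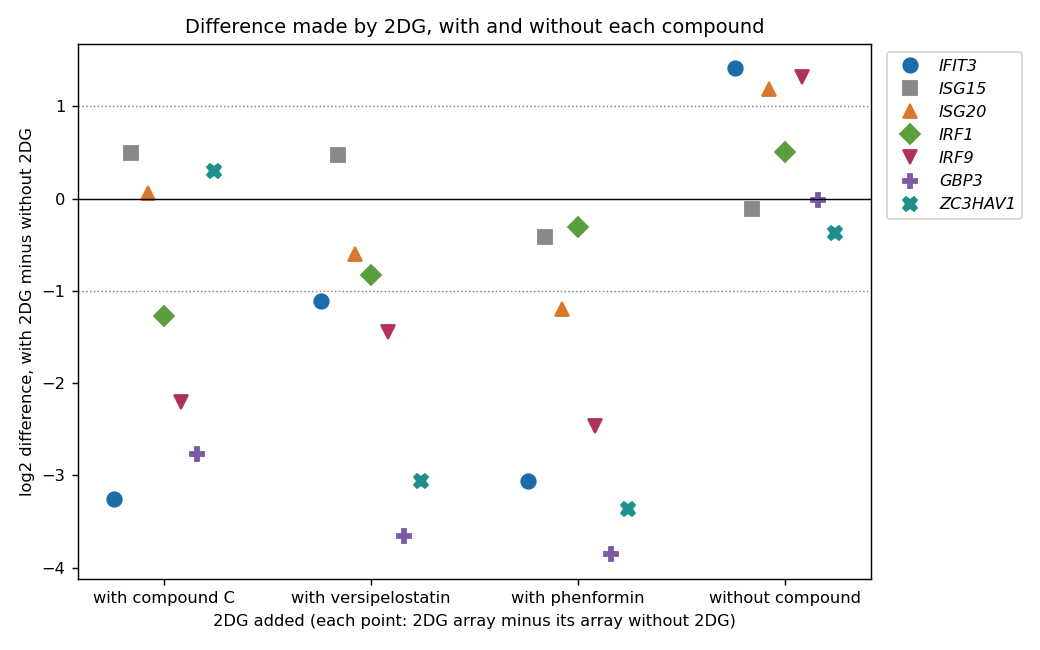
Difference in log2 value made by 2DG (vertical axis) for each measured gene, in cells given compound C, versipelostatin or phenformin and in cells given no compound, with 1 array on each side, dotted lines at 2-fold and bounds plotted at the bound. IFIT3 lies at 1.41 and IRF9 at 1.31 without a compound, and both lie below 0 with each of the 3 compounds.

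Upstream of these genes, none of the 6 interferon ligands on the array (IFNA1, IFNB1, IFNE, IFNG, IFNL1 and IFNL2) was measured, and the highest value of any of them was 3.72. Among 5 measured receptor chains of 12 listed genes on the array, IFNGR1, a chain of the interferon gamma receptor, was higher in 2DG than in the control, at 7.68 against 6.65, and no chain was lower by 2-fold. After scaling on the poly-A controls 0 of the 5 chains were 2-fold higher. IL10RB, shared by the interferon lambda and interleukin 10 receptors, read 4.40 in 2DG+CC, 5.22 in 2DG+VST and 4.58 in 2DG+Phen, against 6.51 in 2DG. IFNAR1, a chain of the type I receptor, read 4.18, 5.16 and 4.61 on the same 3 arrays, against 5.94 in 2DG. Without 2DG IFNAR1 read 6.33 in CC, 5.09 in VST and 5.35 in Phen, against 6.14 in the control. IFNAR2, its partner, was at 0.70 in 2DG+CC relative to 2DG. Added to 2DG, CC left 2 of the 5 chains at least 2-fold lower, VST 1 and Phen 3, beside 25.4%, 20.0% and 21.8% of all genes. After scaling on the poly-A controls the counts were 4, 4 and 3, where the medians over all genes were -1.27, -0.79 and -0.70.

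Inside the cell, the 6 measured genes of JAK-STAT signalling held no 2-fold difference between 2DG and the control, with a median of -0.01. When CC, VST or Phen was added to 2DG, none of them was at least 2-fold lower, beside 25.4%, 20.0% and 21.8% of all genes. After scaling on the poly-A controls 3 were lower with CC, 1 with VST and 1 with Phen, with no share of all genes counted. As deposited none was at least 2-fold higher with CC, 1 was with VST and 2 were with Phen, beside 8.33%, 4.09% and 4.84% of all genes. SOCS3, a feedback inhibitor of JAK kinases, was higher with VST, at 7.47 against 5.79 in 2DG, and with Phen, at 6.87. PIAS1 was higher with Phen, at 8.14 against 6.89 in 2DG. Both 2-fold calls with Phen were lost after scaling on the poly-A controls. JAK1 itself read 9.27 in 2DG+CC, 9.19 in 2DG+VST and 8.75 in 2DG+Phen, against 9.60 in 2DG. Of the other interferon regulatory factors 3 were measured. IRF2, which competes with IRF1 for the same DNA element, read 2.71 in 2DG+CC, 5.56 in 2DG+VST and 5.22 in 2DG+Phen, against 6.63 in 2DG. It was thus lowest with CC, as IRF1 and IRF9 were on their main probe sets, though not on the weaker IRF1 probe set. IRF3, which acts downstream of the RNA sensors, stayed between -0.63 and 0.08 relative to 2DG in these comparisons. IRF2BP2 was higher with Phen, at 1.06, a call lost after scaling on the poly-A controls. After that scaling 2 of the 3 factors were at least 2-fold lower with each compound. IRF3 was among them with VST, at -1.13, and with Phen, at -1.07.

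Of 39 other interferon-stimulated antiviral genes on the array 20 were measured, and 19 were not, among them MX1, OAS1, RSAD2, IFI44L, XAF1 and CMPK2, whose highest value on any array was 2.87. In 2DG against the control 2 of the 20 were at least 2-fold higher and none lower, beside 3.06% of all genes higher, and 0 were higher after scaling on the poly-A controls. These were PARP14, which modifies proteins with ADP-ribose, at 6.54 in 2DG against 5.51 in the control, and the DNA sensor IFI16, at 10.21 in 2DG against 9.21 in the control. The median was 0.29. For compounds added to 2DG, 6 of 20 genes were lower with CC, 2 with VST and 6 with Phen, and none was higher, with medians of -0.60, -0.48 and -0.73. With 25.4%, 20.0% and 21.8% of all genes lower, these counts lay near that background or, with VST, below it. After scaling on the poly-A controls the counts lower were 16, 11 and 11, with no share of all genes counted. The medians of the list were then -1.64, -1.08 and -1.16, against -1.27, -0.79 and -0.70 over all genes. IFIT5, a relative of the IFIT genes, read 2.03 in 2DG+CC, 5.49 in 2DG+VST and 4.33 in 2DG+Phen, against 6.54 in 2DG. DTX3L and PARP9, which form 1 ubiquitin ligase complex, were lower by 2-fold with CC and with Phen, and with CC they read 6.15 and 3.43, against 8.72 and 5.83 in 2DG. TRIM5, a restriction factor for retroviruses, read 5.16 in 2DG+CC against 7.57 in 2DG. The single measured gene of ISG15 conjugation, UBE2L6, its conjugating enzyme, read 7.54 in 2DG+CC, 7.75 in 2DG+VST and 7.37 in 2DG+Phen, against 7.93 in 2DG, all within 2-fold as deposited. With CC the UBE2L6 difference was -1.43 after scaling on the poly-A controls.

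Of the 7 measured RNA and DNA sensing genes, 3 were at least 2-fold lower with CC added to 2DG, 4 with VST and 5 with Phen, beside 25.4%, 20.0% and 21.8% of all genes. The medians were -0.44, -1.68 and -1.38, against -0.23, -0.18 and -0.26 over all genes, so that with CC the list lay close to the background. After scaling on the poly-A controls 7, 6 and 6 were lower, again with no share of all genes counted. MAVS, the mitochondrial adaptor of the RNA sensors, read 5.68 in 2DG+CC, 5.81 in 2DG+VST and 5.62 in 2DG+Phen, against 7.49 in 2DG. TRIM25, a cofactor of ZC3HAV1 and a ubiquitin ligase for the sensor RIG-I, read 5.91 in 2DG+VST and 6.41 in 2DG+Phen, against 9.29 in 2DG, differences of -3.38 and -2.88. Without 2DG it read 8.82 in CC, 8.55 in VST and 7.17 in Phen, against 9.07 in the control. With CC added to 2DG TRIM25 stayed within 2-fold of 2DG, at 8.86, as ZC3HAV1 did. KHNYN, another cofactor of ZC3HAV1, was at -1.55 with CC, -2.16 with VST and -1.55 with Phen, and in 2DG it was 1.03 above the control, a 2-fold call lost after scaling on the poly-A controls. TBK1, the kinase that activates IRF3, was at -1.99 with VST and -1.38 with Phen.

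Of the antigen presentation genes 1 was at least 2-fold lower with CC, 1 with VST and 2 with Phen added to 2DG. These counts, out of 12 measured genes, lay below the shares of all genes, 25.4%, 20.0% and 21.8%. After scaling on the poly-A controls the counts were 9, 4 and 6, with no share of all genes counted. Of the 12 measured none passed 2-fold in 2DG against the control, with a median of 0.45, and TAP1, a subunit of the peptide transporter, was nearest at 0.998 (6.98 in 2DG against 5.99 in the control). TAP1 was also lower on each combined array, at 5.69 in 2DG+CC, 5.64 in 2DG+VST and 5.33 in 2DG+Phen, and PSMB8, an immunoproteasome subunit, was lower with Phen at -1.34. None of the 5 other guanylate-binding proteins on the array was measured. Among the 5 measured NF-kappaB genes, 3 were at least 2-fold higher and none lower with CC added to 2DG. With VST 2 were higher and 1 lower (REL), and with Phen 2 were higher and none lower. Over all genes 8.33%, 4.09% and 4.84% were higher and 25.4%, 20.0% and 21.8% lower. After scaling on the poly-A controls 1 of the 5 was higher and 1 lower with CC, and 2 were higher and 1 lower with VST and with Phen. TNFAIP3, a feedback inhibitor of the pathway, read 6.18 in 2DG+CC, 6.86 in 2DG+VST and 8.41 in 2DG+Phen, against 3.84 in 2DG. NFKBIA, the inhibitor IκBα, was higher with VST, at 10.33, and with Phen, at 9.97, against 7.52 in 2DG. NFKB1 and REL, which encode subunits of the factor, were at 1.78 and 1.75 with CC, and at 0.74 and 0.71 after scaling on the poly-A controls.

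**Figure D4:**
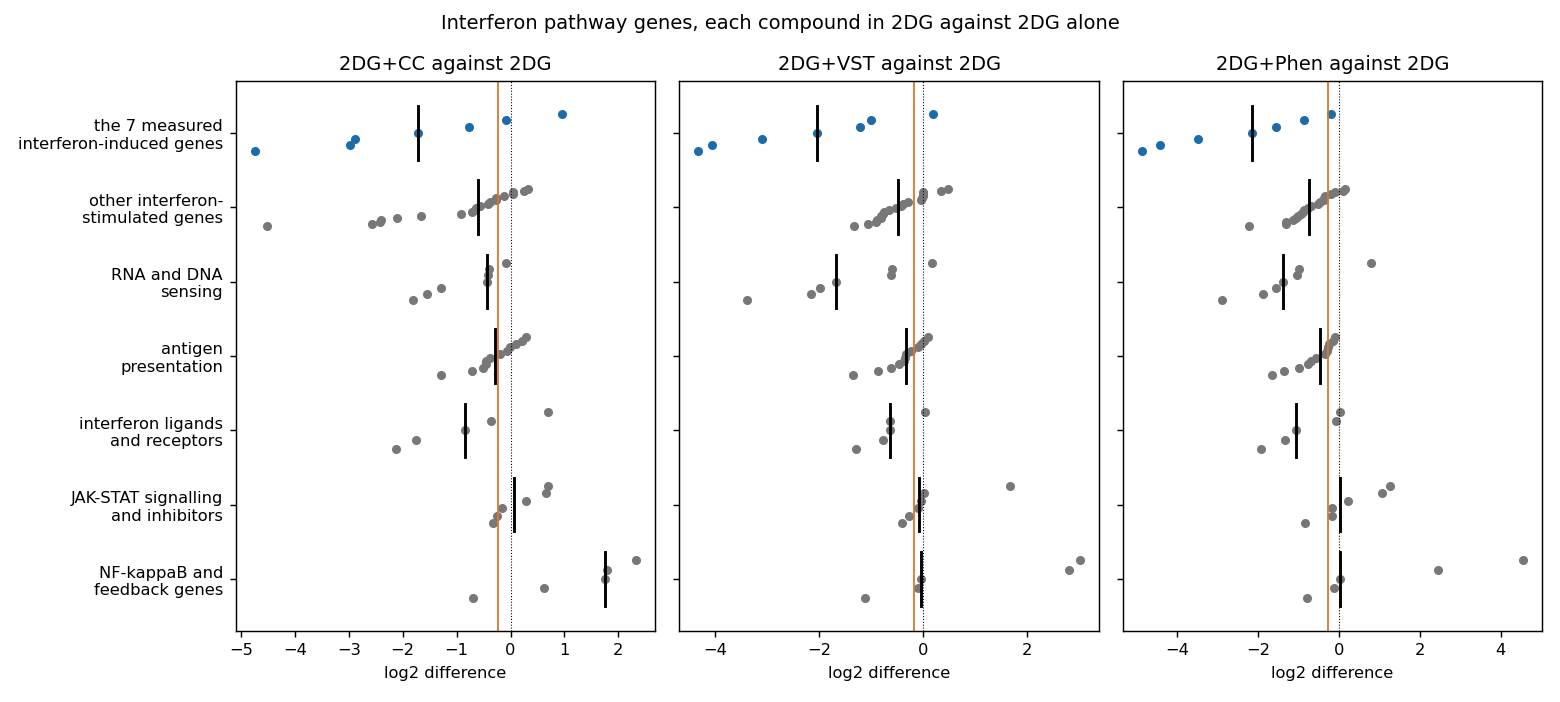
Difference in log2 value (horizontal axis) of the 7 measured genes in blue and of 6 related gene lists in grey when CC, VST or Phen was added to 2DG, with 1 point per gene plotted as measured (values under the array median included), a black bar for each list's median and an orange line for the median of all genes. The 7 genes have medians of -1.71, -2.05 and -2.14, and the NF-kappaB list is at 1.75 with CC.

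The genes whose levels ran most like those of each member over the 8 arrays were found among 5718 genes with a span of at least 2-fold, as a description over 8 points that share the same 8 arrays. IFIT3 and IRF9 had a Pearson correlation of 0.93 with each other, IFIT3 and IRF1 0.86, and GBP3 and ZC3HAV1 0.83, whereas ISG15 and IRF1 ran in opposite directions at -0.70. The nearest genes to IFIT3 were LRATD2, MOB3A and CD58, at 0.984 to 0.986. Those nearest to IRF9 were HECA, TRIM8 and BBS2, at 0.971 to 0.978, and those nearest to IRF1 were ARHGEF28, ZNF462 and CNOT6L, at 0.984 to 0.993. For GBP3 they were OXSM, SMG8 and GSK3B, at 0.993 to 0.995, and for ZC3HAV1 they were LRRC47, ADGRA3 and DUSP7, at 0.983 to 0.988. The nearest to ISG20 were FBXL15, MCRIP1 and CSF1, at 0.936 to 0.955, and to ISG15 ADD1, FRG1GP and TRIM58, at 0.943 to 0.981. None of the 9 genes was the nearest gene to another.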

How the data were processed

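RNA from HT1080 cells was labelled and hybridized to Affymetrix U133 Plus 2.0 arrays, 1 array for each of 8 conditions. The authors deposited log2 values normalized by RMA, and which software ran it was not given in the sources used here. RMA makes the arrays' distributions alike, so a change in total mRNA is not visible in these values. The deposited values were used without further normalization in Python 3.11.15 with pandas 2.3.3.

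Of 54675 probe sets, 62 are controls, 41097 have 1 gene symbol, 1801 have several and 11777 have none in the platform annotation, which was matched to RefSeq names. Probe sets reaching 6 on at least 1 array were kept (15503), and a gene was represented by its kept probe set of 1 symbol with the highest mean. Differences were taken between single arrays, and those of at least 2-fold were counted. There was no test, since each condition had 1 array, whose number limits the precision. The counting code was tested on simulated data. Genes named besides the 9 members were, for each list, up to 4 measured genes with the largest difference in a comparison, and for each member the 3 genes with the highest correlation. Exceptions are the unmeasured genes named to show their levels. The members and the gene lists were chosen with earlier results of these data known.

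The alternatives tried were folds of 1.5 and 3, expression limits of 5 and 7 and none, centring, quantile normalization, scaling on the 24 poly-A control probe sets, a floor at the array median, another choice of probe set, the median over probe sets, and leaving out probe sets of the _s_at and _x_at types.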

Additional observations from a re-analysis of the deposited data

Results flagged for a closer look

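In 3 genes the 2DG difference of the main probe set ran in opposite directions with and without a compound, each by at least 2-fold. The share of all genes that did so was not counted. The values here are the difference with the compound minus the difference without it, and since each condition is 1 array, none of these contrasts was tested. For IFIT3 the value was -4.66 with CC, where it is an upper bound, -2.53 with VST and -4.47 with Phen. For IRF9 it was -3.51 with CC, -2.75 with VST and -3.78 with Phen. For ISG20 it was -2.38 with Phen. Some of the 2-fold calls behind these values were lost on another probe set or under another scaling. On the other IFIT3 probe set 2DG against the control was at 0.85, 2DG+VST against VST at -0.06 and 2DG+Phen against Phen at -0.68. In 2DG against the control ISG20 was at 0.86 and IRF9 at 0.99 after scaling on the poly-A controls. For 2DG with a compound against that compound, ISG20 with Phen was at -0.99 with centred and -0.91 with quantile-normalized arrays, and IFIT3 with VST was at -0.93 with centred arrays. All 7 values share the 2DG and control arrays. The poly-A and hybridization controls were also higher on the combined arrays, and their part in these values was not tested.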

How the results depend on the processing

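No paired analysis was possible because each condition has 1 array and the labels give no replicate numbers, and for the same reason no replicate could be left out. No difference of at least 2-fold changed direction under the alternatives tried. These did not use the ZC3HAV1 probe set of lower signal on its own. It was at 0.57 for 2DG+Phen against 2DG, where the main probe set was at -4.28 or lower. Of 610 alternatives for single genes, 298 had the 2-fold call in the main setting, and 10 of these lost it. Among the others 9 gained it, and all changes came under centring, quantile normalization or poly-A scaling. The expression limits and leaving out the _s_at and _x_at types kept a gene's main probe set or dropped the gene, so these values could not change. The weaker IFIT3 and IRF1 probe sets did not enter. On them IFIT3 was at 0.85 in 2DG against the control and IRF1 at -0.45 in 2DG+CC against 2DG. Depth in arrays is signal over background, and IFIT1, IFIT2 and the low readings of IFIT3, GBP3 and ZC3HAV1 are limited by it.

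In 2DG against the control the count higher went to 0 at a fold of 3, and to 1 with a limit of 7, with poly-A scaling and with the second probe set. At a fold of 1.5, 1 gene was higher and 1 lower with CC, 1 was higher with VST, 3 were higher with Phen and 1 was higher with 2DG+CC. For Phen the count higher was 2 with centring or quantile normalization and 0 with a limit of 7 or the second probe set, and the count lower was 0 at a fold of 3. With centring, 1 gene, ISG15, was higher in 2DG+CC. With a limit of 7, which left 4 genes, 1 was lower with 2DG+CC, 3 with 2DG+VST and 3 with 2DG+Phen, and the medians were -0.43, -2.64 and -2.98. With the second probe set, available for 2 genes, 0 were lower with 2DG+CC (median -0.34), 2 with 2DG+VST and 2 with 2DG+Phen. With no limit the medians were -1.12 for 2DG+CC and -1.55 for 2DG+Phen, and without the _s_at and _x_at probe sets -2.30 and -2.81. Poly-A scaling gave -2.75 for 2DG+CC and -2.65 for 2DG+VST. These moves of counts follow from fewer genes or another threshold in the case of the limits, folds and probe sets, and for the scalings the cause was not tested.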

Other observations

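Some related genes that stayed under the expression limit of 6 also read highest in 2DG alone, and they were chosen after their values were seen. TLR3, a sensor of double-stranded RNA, read 1.84 in 2DG+CC, 2.24 in 2DG+VST and 2.22 in 2DG+Phen, against 5.12 in 2DG, and 3.72 in CC, 3.22 in VST and 3.29 in Phen, against 2.96 in the control. IFIH1, the sensor MDA5, read 2.29 in 2DG+CC, 3.28 in 2DG+VST and 2.39 in 2DG+Phen, against 4.97 in 2DG, and 3.13 in CC, 3.11 in VST and 3.98 in Phen, against 3.19 in the control. GBP1, a relative of GBP3, read 4.30 in 2DG+CC, 4.02 in 2DG+VST and 3.65 in 2DG+Phen, against 5.83 in 2DG, and 5.46 in CC, 4.66 in VST and 5.03 in Phen, against 4.48 in the control. IRF7, which amplifies the interferon response, stayed under the array median on all 8 arrays, between 2.14 and 2.68.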
